A study of Mus musculus with 6 samples.

Results

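The genes described here encode deubiquitinases of the USP and OTU families. They were taken by name from a table of gene expression in mouse alveolar macrophages, as every gene whose symbol starts with Usp and a digit, Otud or Otub, with the interferon-induced Usp18 left out. The rule found 50 of the 11789 genes in the table, of which 42 are named Usp, 6 Otud and 2 Otub. Usp6nl meets the rule by name only, since its product is a GTPase-activating protein for Rab GTPases and not a deubiquitinase, so the rule holds 49 enzymes or enzyme-like proteins. Counts below include Usp6nl. A further 15 protein-coding genes of the mouse annotation GENCODE M21 meet the rule but have no row in the table, among them Usp13, Usp44, Usp9y, Otud6a and Otud7a.

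The libraries came from alveolar macrophages, phagocytes that live in the air spaces of the lung, taken from C57BL/6 mice after an exposure that the labels call BLM. The wild-type group had 3 libraries, named BLM1, BLM2 and BLM3 in the table. The other 3, named A20-1, A20-3 and A20-4, carry the label A20 conditional knockout, and all 6 had the exposure. A20, encoded by Tnfaip3, is itself an OTU-family protein that edits ubiquitin chains and restrains NF-kB signalling. The labels do not state which Cre was used, which exons were deleted, the dose and day of the exposure, the mice's age, or whether each replicate came from 1 mouse or from several. The p-values therefore measure the spread between these libraries, part of which may be technical.

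Deubiquitinases remove ubiquitin, a small protein tag, from other proteins, or trim and edit the chains into which it is built. In this way they decide whether a tagged protein is sent to the proteasome, moved between membranes or kept in a signalling complex. The USP family is the largest group and covers substrates from histones to cell-surface receptors. OTU enzymes are fewer and often prefer a certain chain linkage. In macrophages members of both families act on the adaptors and kinases that carry signals from Toll-like and TNF receptors to NF-kB and interferon genes.

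Values are FPKM, fragments per kilobase of transcript, scaled to library size, which can be compared between genes because they are scaled to length. The read depth behind them is unknown. Each library's FPKM added up to between 266094 and 294525. Library BLM3 stood apart: across the genes tested it correlated with BLM1 and BLM2 at 0.925 and 0.913, against 0.982 between those libraries and 0.977 to 0.980 among the knockout libraries. The targeted gene did not separate the labelled groups, with Tnfaip3 at 8.44, 12.9 and 6.80 FPKM in the knockout libraries (A20-1, A20-3, A20-4, the order kept throughout) and at 4.47, 2.18 and 21.6 in the wild-type ones (BLM1, BLM2, BLM3) (exact two-sided permutation p = 1, where 0.1 is the smallest possible). Without BLM3 every library labelled knockout was above both labelled wild type, by 1.27 on the log2 scale (limma adjusted p = 0.0797), which goes against the labels for a deleted gene. Whole-gene FPKM cannot show a deletion of single exons, so every direction below is one between libraries as labelled. All 13 alveolar macrophage markers looked for were in the table, with summed levels of 5203 to 7517 FPKM in the knockout and 3925 to 6857 in the wild-type libraries. Of these 13, Marco alone passed between the groups (limma adjusted p under 0.05, as did 1.1% of all genes tested). Markers of other cells were present too. The 5 neutrophil markers in the table, of 9 looked for, summed to 42.9 to 70.7 FPKM in the knockout libraries, 117 and 108 in BLM1 and BLM2 and 2554 in BLM3. The 7 lung epithelial markers summed to 276 to 368 FPKM in the knockout and 60.6 to 182 in the wild-type libraries. The 3 fibroblast and endothelial markers present, of 6, summed to 2.3 to 5.6 FPKM in knockout and 3.5 to 7.6 in wild-type libraries. Mitochondrial transcripts summed to 10718 FPKM in A20-4 and to 17446 to 22631 in the other 5 libraries. The 4 monocyte markers had 10.98 to 19.6 and 21.9 to 136 FPKM, the 4 B cell markers 11.2 to 19.0 and 10.2 to 81.2, and 7 T and NK cell markers 185 to 193 and 139 to 237, each in knockout and then wild-type libraries. In whole samples like these, fewer cells of a type and less RNA per cell cannot be told apart, and the part of these markers in the results below was not tested.

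The members covered a graded range of levels in these samples. The median of mean FPKM was 6.00 for the members tested, against 7.72 for all genes tested. Mean FPKM over the 6 libraries was at least 10 for 16 members, between 5 and 10 for 10, between 1 and 5 for 20 and below 1 for 4. Usp8, an endosomal enzyme that frees receptors and sorting proteins from ubiquitin, had the highest mean, 35.3 FPKM. It was followed by Usp25, which acts on TRAF adaptor proteins, at 27.9 FPKM, and by Otub1, which cleaves chains and also blocks ubiquitin-conjugating enzymes without cleavage, at 24.1. The next were Otud5, an enzyme that limits interferon induction through TRAF3, at 18.8, Usp12 at 17.6 and the partly membrane-anchored Usp19 at 17.4. Usp7, the enzyme of Mdm2 and p53, had 16.9 FPKM and Usp5, which takes apart free ubiquitin chains, had 15.4. Neighbours in this order overlapped in many cases. Usp8 ranged from 27.1 to 38.5 FPKM and Usp25 from 22.4 to 33.7.

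**Figure D1:**
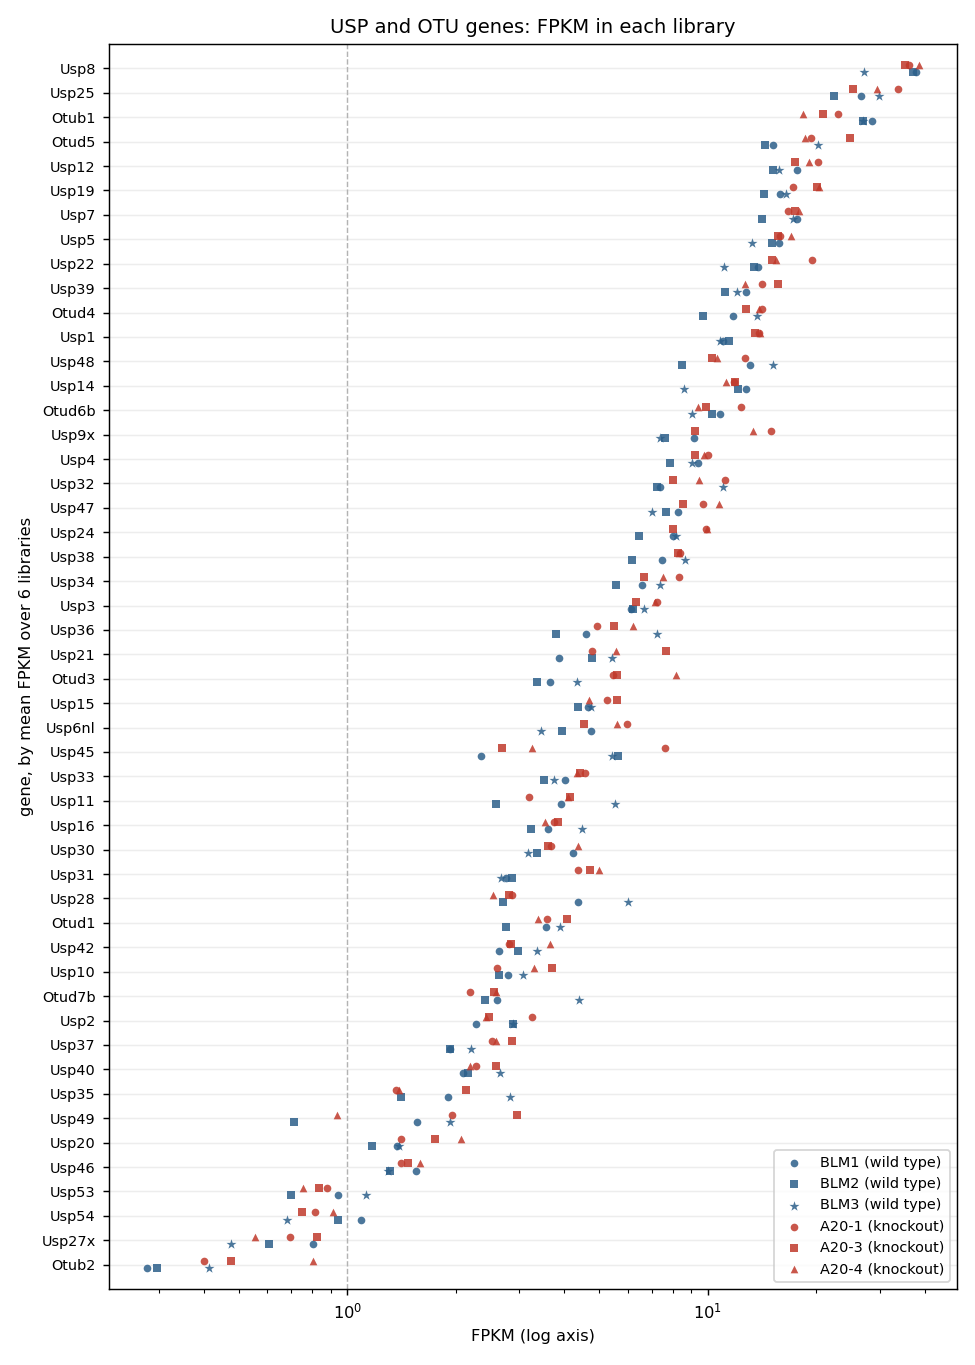
FPKM on a log axis of each of the 50 genes in each of the 6 libraries (blue, wild type; red, knockout; star, BLM3; dashed line, 1 FPKM), ordered by mean. Usp8 is at the top with a mean of 35.3 FPKM, and Otub2 at the bottom with 0.445.

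The low end held Otub2, Usp27x, Usp54 and Usp53, with means of 0.445, 0.661, 0.865 and 0.874 FPKM. These 4 were under the minimum mean of 1 FPKM and were not tested, which leaves 46 members tested, or 45 without Usp6nl. Otub2 had 0.401, 0.476 and 0.803 FPKM in the knockout and 0.279, 0.297 and 0.414 in wild-type libraries, so its groups overlapped. The higher group mean was at least 0.5001 FPKM for every gene in the table. Otub2 reached that level only in the knockout, with group means of 0.560 and 0.330 FPKM. Usp27x had 0.696, 0.827 and 0.554 against 0.804, 0.607 and 0.476 FPKM in the same order, and Usp53 and Usp54 overlapped likewise.

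Some related members differed widely in level, and others much less. Otub1 was 54.2 times as abundant as Otub2 by mean FPKM, and this ratio ran from 22.9 in A20-4 to 103 in BLM1. It is uncertain, because Otub2 was near the floor, with group means of 0.560 FPKM in knockout and 0.330 in wild type. Usp12 and Usp46, close relatives that share the activating partner WDR48, stood at 17.6 and 1.44 FPKM, a ratio between 11.4 and 14.4 in every library. Usp25 exceeded its relative Usp28 by 4.99 to 11.7 times. Usp22, the histone deubiquitinase of the SAGA complex, exceeded Usp27x by 17.2 to 27.9 times, with Usp27x also low at a mean of 0.661 FPKM. Usp4 and Usp15, relatives with the same domain layout, were nearer, with 9.23 and 4.89 FPKM, as were the large enzymes Usp9x and Usp24 with 10.3 and 8.41. Of 16 related pairs listed, 12 had both genes in the table.

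None of the 46 members tested passed the threshold in the comparison of knockout with wild type (limma on log2(FPKM + 1), Benjamini-Hochberg adjusted p under 0.05 over 10696 genes). Over all genes tested, 118 passed, or 1.1%, of which 27 were higher (0.252%) and 91 lower (0.851%) in the knockout libraries. At an unadjusted p under 0.05, 9 of 46 members passed, 8 with higher and 1 with lower values in the knockout, where the background over all genes was 20.3%, 11.0% and 9.3%. In total the members' share, 19.6%, was close to the background. By direction it was 17.4% higher and 2.17% lower, so the split was unlike that of all genes. Their differences were small. The 95% interval of the difference lay inside -1 to 1 on the log2 scale for 42 of 46 members, against 82.9% of all genes tested, and 3 members differed by more than 0.5 (6.52%, against 14.9%).

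**Figure D2:**
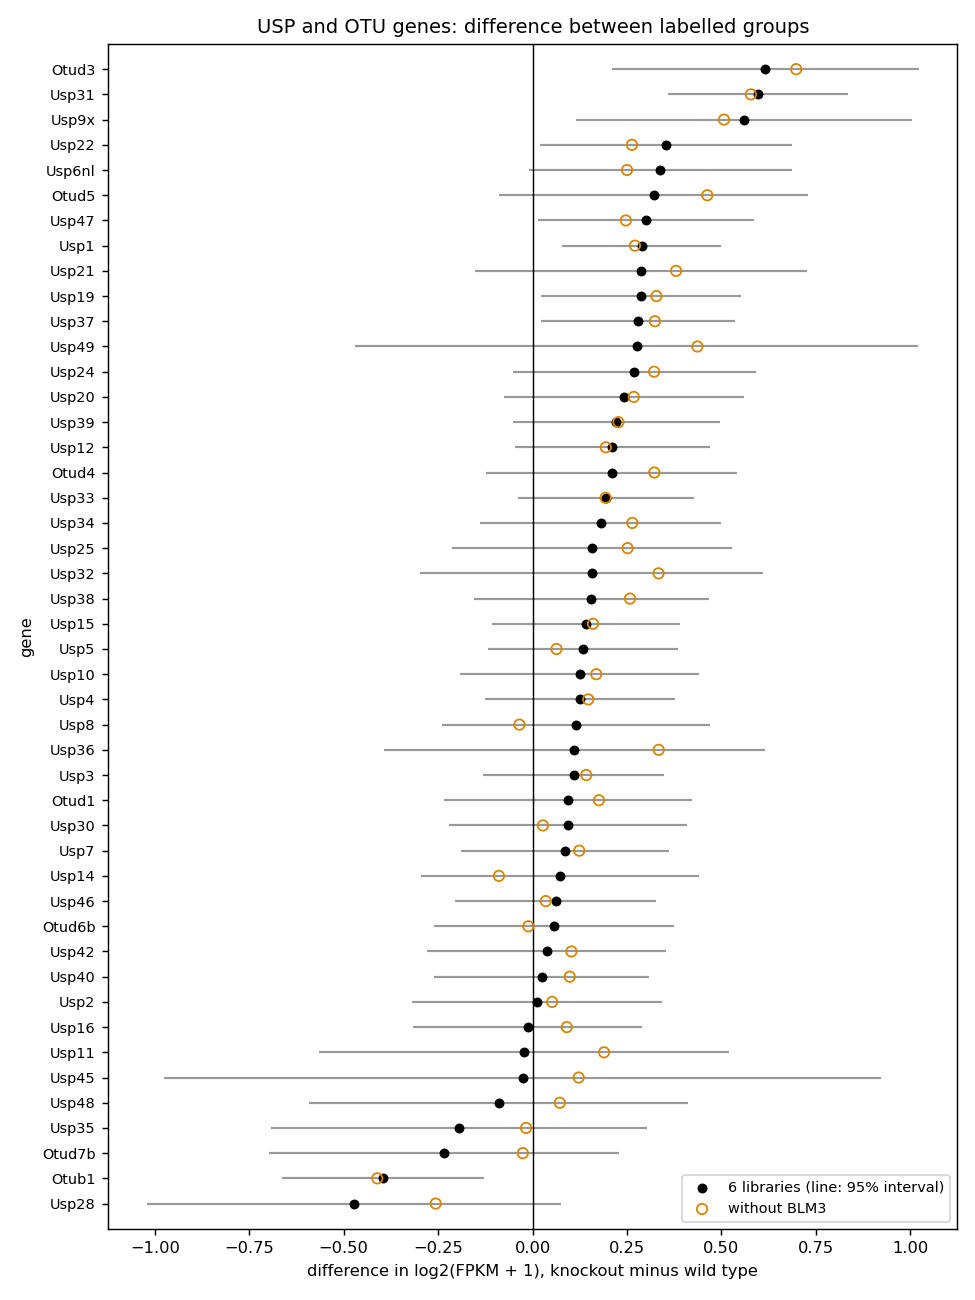
Difference in log2(FPKM + 1), knockout minus wild type, for the 46 members tested, with its 95% interval (black point and line, 6 libraries) and the difference without BLM3 (orange circle). The difference runs from -0.47 for Usp28 to 0.62 for Otud3, and intervals lie wholly above 0 for 8 members and wholly below 0 for 1.

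Most of these small differences had the same sign. Of 46 members, 38 had a positive difference (82.6%) and 8 a negative one, while 52.9% of all genes tested were positive. The median was 0.14 on the log2 scale for the members and 0.02 for all genes. Without Usp6nl 37 of 45 were positive and the median was 0.13. Without BLM3 39 of 46 were positive, against 54.1% of all genes tested, and the median was 0.19. Summed over the 50 members, FPKM was 445, 418 and 429 in the knockout and 398, 360.2 and 402 in wild-type libraries. All knockout sums thus lay above all wild-type sums. Library BLM2 was the lowest of the 6 for 22 of 46 members (47.8%, against 20.7% of all genes tested), and 35 members were positive without it (median 0.09). Rescaled to TPM, in which every library has the same sum, 41 members were positive with a median of 0.23. All genes moved up with that rescaling as well, to 63.1% positive and a median of 0.10, so the gap between the members and all genes went only from 0.12 to 0.13. Members of one family are not replicates, so these counts describe the libraries and carry no test.

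**Figure D3:**
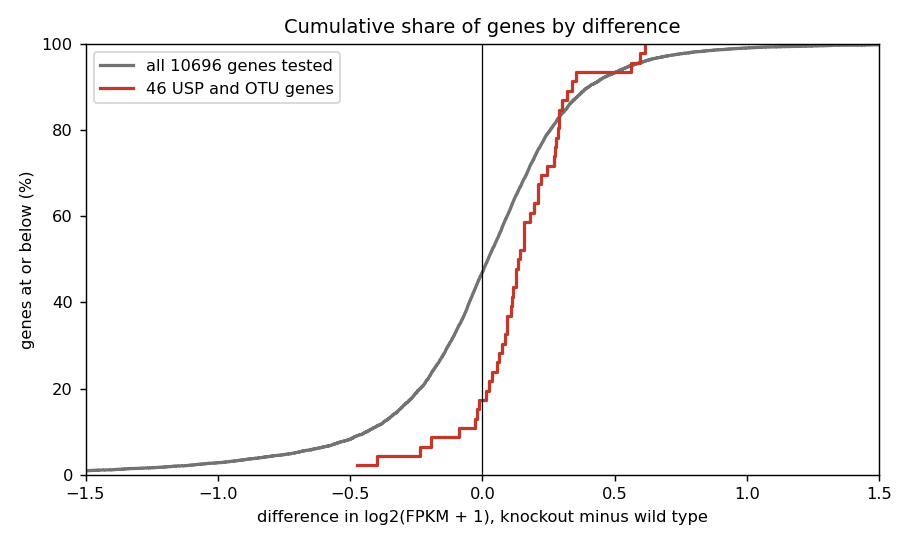
Cumulative share of genes (vertical axis, %) by difference in log2(FPKM + 1), knockout minus wild type, for the 46 members tested (red) and all 10696 genes tested (grey, with its far ends not drawn). The red curve lies to the right of the grey one around 0, with medians of 0.14 and 0.02, and its ends stop at -0.47 and 0.62.

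The member nearest to the threshold was Usp31, whose product was described as an inhibitor of NF-kB when overexpressed (ENSMUSG00000063317.7, GRCm38 chromosome 7, 121642021 to 121707253, minus strand). It had 4.38, 4.73 and 4.98 FPKM in the knockout and 2.77, 2.86 and 2.66 in wild-type libraries. The groups did not overlap, and values within each lay close together. The means of 4.70 ± 0.304 and 2.76 ± 0.098 FPKM (SD, n = 3 each) stood in a ratio of 1.70, and the difference was 0.60 ± 0.10 on the log2 scale (SE, limma adjusted p = 0.0537). Without BLM3 it was 0.58 and passed (adjusted p = 0.0496, where 3.84% of all genes passed and 1.35% were higher), and under TPM it passed as well (adjusted p = 0.0461, where 0.982% of all genes passed and 0.383% were higher). With library weights estimated by limma it was 1 of 4 members that were called higher, where 8.81% of all genes were. Without the other libraries in turn its adjusted p was up to 0.224.

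Otud3, an OTU-family enzyme, came next (ENSMUSG00000041161.8, chromosome 4, 138895379 to 138913945, minus strand). It stood at FPKM values of 5.45, 5.59 and 8.18 in the knockout and 3.66, 3.35 and 4.34 in wild-type libraries. Every knockout value was above every wild-type value, with A20-4 well above the others. The difference of 0.62 ± 0.17 (SE) had an adjusted p of 0.126, or 0.0887 without BLM3. The 250 bases before the RefSeq start of these genes, the 2 with the smallest p, are shown with the GC box GGGCGG and the E box CACGTG in capitals, either strand (RefSeq, GRCm38.p6, chr7:121707443-121707692 and chr4:138913969-138914218, both minus strand):
Usp31: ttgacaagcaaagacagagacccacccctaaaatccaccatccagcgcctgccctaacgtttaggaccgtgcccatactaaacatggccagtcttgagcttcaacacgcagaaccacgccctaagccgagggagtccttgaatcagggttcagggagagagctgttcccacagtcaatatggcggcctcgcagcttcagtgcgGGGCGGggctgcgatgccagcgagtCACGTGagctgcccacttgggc
Otud3: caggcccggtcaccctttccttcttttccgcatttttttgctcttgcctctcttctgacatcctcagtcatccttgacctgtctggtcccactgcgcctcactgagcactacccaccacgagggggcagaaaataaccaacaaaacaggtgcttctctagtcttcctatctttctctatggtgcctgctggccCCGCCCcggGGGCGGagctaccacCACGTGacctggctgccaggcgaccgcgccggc

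Both windows held a GC box and an E box. The RefSeq starts lie outside the gene ends that the table gives for Usp31 and Otud3. Promoter windows were found for 39 of the 50 members (43 windows). Of these, 29 held a GC box (67.4%, against 57.4% of 10715 windows of genes tested and 32.7% of all 32851 windows) and 6 held the E box (14.0%, against 8.5% and 6.0%), namely those of Otud1, Otud3, Usp16, Usp31, Usp4 and Usp6nl. The CCAAT box, searched as CCAAT on both strands, was in 9 (20.9%, against 35.1% and 33.8%). The NF-kB motif, searched as GGG and TTTCC with any 2 bases between them, was in 0 of 43 (1.5% of windows of genes tested), and the cyclic AMP element TGACGTCA in 0 as well (2.6%). The median GC content was 64.8% in the members' windows and 59.6% in those of genes tested. A match is a run of letters and not a measured site, and nothing was measured at these promoters.

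Otub1 was the member with the smallest p among those lower in the knockout libraries (ENSMUSG00000024767.11, chromosome 19, 7198202 to 7206316, minus strand). It had 22.9, 20.9 and 18.4 FPKM in the knockout and 28.6, 27.0 and 27.0 in wild-type libraries. The groups did not overlap, and BLM3 lay with the other wild-type libraries. The difference was -0.40 ± 0.11 (SE, adjusted p = 0.131) and ran from -0.47 to -0.32 when each library was left out. It was the only one of the 46 with all knockout values below all wild-type values, where 13.1% of all genes tested were so.

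Values wholly above the wild-type ones were found for 10 of 46 members, where 15.9% of all genes tested had this. Beside Usp31 and Otud3 these were Usp1, Usp9x, Usp19, Usp20, Usp22, Usp33, Usp37 and Usp47. Usp1, which removes ubiquitin from the repair proteins FANCD2 and PCNA, had 13.9, 13.5 and 13.96 FPKM in the knockout and 11.03, 11.45 and 10.8 in wild-type libraries. That is a narrow but clean gap of 0.29 ± 0.09 (SE, adjusted p = 0.149). Of the distinct 31-base windows in its transcripts, 31.6% also occur in transcripts of other genes, so its level is uncertain where reads could be shared. Usp9x, a large enzyme encoded on the X chromosome with many substrates, had 15.0, 9.24 and 13.4 against 9.19, 7.59 and 7.39 FPKM in the same library order. Its groups nearly touched at A20-3 and BLM1, and the difference was 0.56 ± 0.19 (SE, adjusted p = 0.175).

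**Figure D4:**
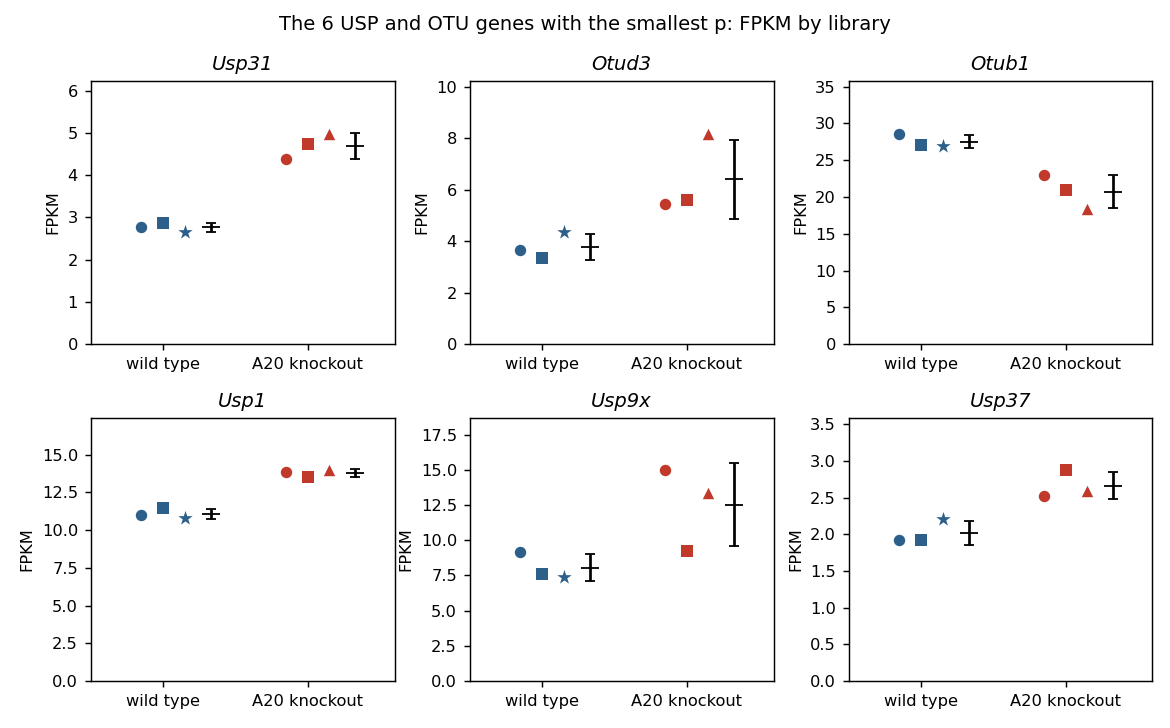
FPKM by library (vertical axes start at 0) for the 6 members with the smallest p, with mean and SD beside the points (n = 3; blue, wild type; red, knockout; star, BLM3). The groups are separate in all 6 panels, by the least in Usp9x, where A20-3 had 9.24 and BLM1 9.19 FPKM. Picking by p favours such separation, and 29.0% of all genes tested had groups that did not overlap.

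Members that act in NF-kB, TNF and innate signalling had a median difference of 0.13, beside 0.14 over all members. Of 20 listed, 18 were tested, 0 passed and 14 had a positive difference (15 under TPM). Usp25 had 33.7, 25.3 and 29.5 FPKM in the knockout and 26.7, 22.4 and 29.95 in wild-type libraries, with overlapping groups and an interval of the difference from -0.21 to 0.53. Otud5 had 19.3, 24.9 and 18.6 against 15.2, 14.4 and 20.2 FPKM in the same order. Only BLM3 of its wild-type libraries reached the knockout range, and the difference was 0.32 ± 0.17 (adjusted p = 0.337). It was 0.46 without BLM3 (adjusted p = 0.128) and 0.20 without A20-3 (adjusted p = 0.593). Otud7b, also called Cezanne, which removes chains from TRAF3, was at 2.19, 2.56 and 2.59 FPKM in A20-1, A20-3 and A20-4, 2.60 and 2.41 in BLM1 and BLM2 and 4.41 in BLM3. Its difference of -0.23 rested on BLM3 and was -0.03 without it. Otud4 had a difference of 0.21 ± 0.14 and Otud1 of 0.09 ± 0.14. Usp21, a regulator of the kinase RIPK1, had 0.29 ± 0.18, Usp15 0.14 ± 0.10 and Usp4 0.13 ± 0.10 (SE). Usp7, Usp10 and Usp5 had 0.09, 0.13 and 0.13, and Usp2, an enzyme also tied to cyclin control, had 0.01 ± 0.14.

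Enzymes that act on histones in the nucleus were led by Usp22. It had 19.4, 15.1 and 15.5 FPKM in the knockout and 13.8, 13.4 and 11.1 in wild-type libraries, so all knockout values were higher, and the difference was 0.35 ± 0.14 (SE, adjusted p = 0.224). Of the 5 listed members tested, 4 had a positive difference (median 0.28, and all 5 positive under TPM) and 0 passed. Usp3 had 0.11 and Usp16 -0.01. Usp49 varied within both groups, from 0.939 to 2.97 FPKM in the knockout and from 0.713 to 1.93 in the wild-type libraries. Its value is uncertain, because 51.2% of its exonic length is shared with the gene Gm20517 on the same strand.

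In DNA damage and p53 control, 6 of 10 members tested had a positive difference and 4 a negative one (median 0.11, and 7 and 3 under TPM), and 0 passed. Usp28, which stabilises MYC and p53-pathway proteins, had the most negative difference of all members. It was at 2.87, 2.81 and 2.53 FPKM in the knockout and at 4.38, 2.70 and 6.00 in wild-type libraries. BLM2 lay inside the knockout range, and the difference was -0.47 ± 0.23 (adjusted p = 0.300). It was -0.26 without BLM3 (adjusted p = 0.430) and -0.72 without BLM2 (adjusted p = 0.1001). Usp48 had 12.7, 10.3 and 10.6 against 13.1, 8.496 and 15.2 FPKM, with the wild-type libraries spread around the knockout ones (-0.09 ± 0.21). Usp47, an enzyme of DNA polymerase beta, had a difference of 0.30 ± 0.12 and Usp24 of 0.27 ± 0.13 (SE). Usp45, which acts on the repair nuclease ERCC1-XPF, had no pattern by group, with 7.61, 2.68 and 3.27 FPKM in the knockout and 2.35, 5.63 and 5.42 in the wild-type libraries. Its wild-type range of 0.98 on the log2 scale was the widest of the members, before Usp28 with 0.92 and Usp11 with 0.86.

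Among enzymes of endosomes, autophagy, mitochondria and the endoplasmic reticulum, 8 of 9 tested had a positive difference (median 0.13), and 0 passed. Usp8 had 36.1, 35.2 and 38.5 FPKM in the knockout and 37.8, 37.2 and 27.1 in wild-type libraries. The knockout libraries and BLM1 and BLM2 lay close together, BLM3 was lowest, and the difference of 0.12 went to -0.03 without BLM3. Usp19 had 17.3, 20.1 and 20.3 against 15.9, 14.3 and 16.5 FPKM, with all knockout values higher (0.29 ± 0.11, adjusted p = 0.216). Usp33 and Usp20, relatives first found as partners of the von Hippel-Lindau protein, had 0.19 ± 0.10 and 0.24 ± 0.13. For Usp33, 24.4% of the exonic length is overlapped by genes on the opposite strand, and the use of strand in the counting is not given. Usp30, an enzyme of the outer mitochondrial membrane, had 0.09 ± 0.13, and Usp32 and Usp35 had 0.16 and -0.20. The nucleolar Usp36 had 0.11 ± 0.21 (SE), with 7.24 FPKM in BLM3 and 3.79 to 6.20 in the other libraries.

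Substrates in TGF-beta, WNT and Hippo signalling are served by a list of which 7 members were tested, 5 with a positive difference (median 0.14, and 6 positive under TPM), and 0 passed. Beside Usp9x and Usp47, Usp34, an enzyme of the WNT scaffold axin, had 0.18 ± 0.13 and Usp11 -0.02 ± 0.23 (SE). For Usp34, 11.6% of the exonic length is overlapped by a gene on the opposite strand. Of the members tied to the proteasome, free ubiquitin, splicing and the nucleolus, 4 were tested, all 4 with a positive difference and 0 passing. Usp14, which sits on the proteasome and trims chains there, had 11.8, 11.9 and 11.2 FPKM in the knockout and 12.8, 12.2 and 8.61 in wild-type libraries. BLM3 alone was low, and the difference of 0.07 went to -0.09 without it. In the GENCODE M21 model its exons overlap those of Thoc1 on the opposite strand over 26.0% of their length. That model begins at 9993066 and the gene in the table at 9995432, so the overlap may lie outside the gene as measured. The splicing factor Usp39, a USP without protease activity, had 14.1, 15.7 and 12.7 against 12.8, 11.1 and 12.1 FPKM (0.22 ± 0.11, adjusted p = 0.324).

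The remaining members belong to none of these lists. Usp37, an enzyme of cyclin A, had 2.53, 2.87 and 2.59 FPKM in the knockout and 1.92, 1.93 and 2.21 in the wild-type libraries, with no overlap (0.28 ± 0.11, SE, adjusted p = 0.214). Usp12 had 0.21 ± 0.11 and overlapped by a single pair of libraries, A20-3 at 17.5 and BLM1 at 17.7 FPKM. Usp6nl had 0.34 ± 0.15 (adjusted p = 0.258). Usp38, Usp46, Otud6b, Usp42 and Usp40 lay between 0.02 and 0.16. For Usp38, 20.5% of the exonic length is overlapped by a gene on the opposite strand.

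Library BLM3 was above the mean of BLM1 and BLM2 for 31 of 46 members tested (all genes 51.1%), with a median shift of 0.13 on the log2 scale (all genes 0.01). The shift was over 0.25 in either direction for 20 members (43.5%, against 49.0% of all genes). BLM3 lay more than 0.5 on the log2 scale from the mean of BLM1 and BLM2 for 6 of 46 members tested (13.0%), against 23.6% of all genes tested. These were Usp36, Usp28, Usp11, Otud7b, Usp35 and Usp32, all higher in BLM3, with shifts from 0.53 for Usp32 to 0.67 for Usp36. The lowest shifts were those of Usp14 and Usp8, -0.49 and -0.45. The shifts of Usp31, Usp1 and Otub1 were -0.06, -0.05 and -0.04. BLM3 was the highest of the 6 libraries for 9 members (19.6%, against 26.5%) and the lowest for 12 (26.1%, against 27.6%). Usp18, the interferon-induced USP that the name rule leaves out, had 16.5 FPKM in BLM3, 3.04 and 2.50 in BLM1 and BLM2 and 1.88, 1.42 and 0.947 in A20-1, A20-3 and A20-4, a shift of 2.22. In the same library 9 interferon-induced genes summed to 542 FPKM, against 96.1 and 110 in BLM1 and BLM2 and 80.6, 63.2 and 46.5 in the knockout libraries, which were all below the wild-type ones. These values stand beside the neutrophil markers given above, and the part of either in the shifts or in the comparison of the groups was not tested.

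**Figure D5:**
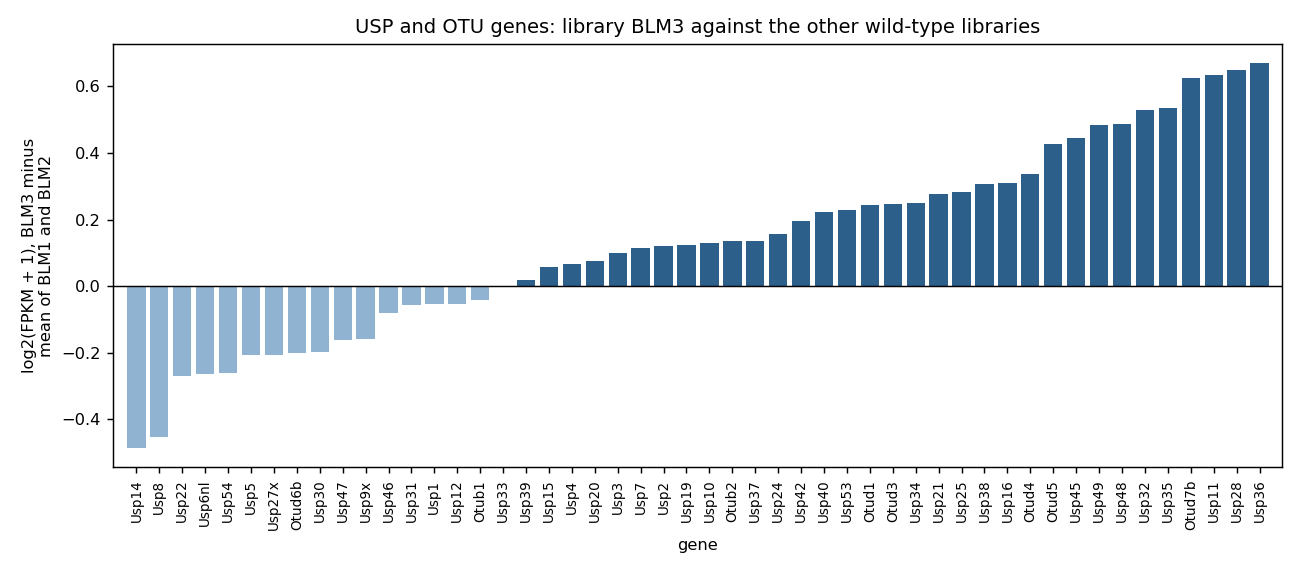
Level in BLM3 minus the mean of BLM1 and BLM2, in log2(FPKM + 1), for the 50 members (dark bars above 0, light bars below). Bars run from -0.49 for Usp14 to 0.67 for Usp36.

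Other genes of ubiquitin removal were compared as lists, and those named with values here, beside Tnfaip3 and Usp18, were picked after their values were seen. Of 10 USP and OTU family genes outside the name rule, Usp18 and Tnfaip3 among them, 0 passed and the median difference was 0.07. Otulin, which cleaves linear chains, had 22.02 ± 2.62 FPKM in wild type against 16.4 ± 0.97 in knockout (SD, n = 3, limma adjusted p = 0.139), and Vcpip1 had 9.41 ± 0.304 and 11.8 ± 0.892 (adjusted p = 0.175). Of 22 tested genes of the other deubiquitinase families, 0 passed, 9 were positive and 13 negative, and the median was -0.01. Mindy1 had the largest of these differences, -0.48 ± 0.13 (SE, adjusted p = 0.120). Of 16 partners and activators of USP enzymes, 12 were positive (median 0.14) and 0 passed. Wdr48, the shared activator of USP1, USP12 and USP46, had 6.24 ± 0.771 and 7.51 ± 0.341 FPKM in wild type and knockout. Of 6 genes for ubiquitin and its activating enzymes, 3 were positive and 0 passed. Ubb, a polyubiquitin gene, had means of 367 ± 36.6 FPKM (wild type) and 368 ± 34.1 (knockout; SD, n = 3).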

How the data were processed

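RNA-seq was measured in 6 libraries, 3 labelled wild type and 3 labelled A20 conditional knockout, made with the KAPA Stranded RNA-Seq kit from 1 ug of total RNA, per the labels' protocols. The authors deposited FPKM per gene, per the file headers. The submitters' processing notes name GRCm38. Aligner, quantifier and strand setting are not given in these sources. The lowest group mean, taking the higher group of each gene, was 0.5001 FPKM. Columns were assigned to groups by name. Columns named only BLM were taken as wild type, since the labels hold 2 groups, and column numbers are not the replicate numbers of the titles.

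Genes with a mean of at least 1 FPKM (10696) were transformed to log2(FPKM + 1) and compared with limma 3.58.1 in R 4.3.3 (eBayes with trend), with a threshold of 0.05 on two-sided p-values adjusted by Benjamini-Hochberg across those genes. Differences are knockout minus wild type and understate changes of low genes. The fit was tested on simulated data with 200 of 10696 genes changed. It recovered 64% of those changed by 1 on the log2 scale and 87% of those changed by 2, with 10 false calls. Smaller changes were not simulated. The simulated noise was independent for each value, with no outlying library such as BLM3, so the test does not cover that feature. Exon overlaps and shared 31-base windows came from GENCODE M21, promoters from RefSeq. Members, gene lists and tests were chosen with earlier results of these data known. Named are the members with the 6 smallest p in each direction, the 8 highest levels, the 3 widest wild-type ranges, related pairs and the role lists. Alternatives were other pseudocounts, filters and scalings, array weights and leaving out each library. Protein sequences were not used here.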

Additional observations from a re-analysis of the deposited data

How the results depend on the processing

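No member passed with 6 libraries, and this held with pseudocounts of 0.1 and 5, without a filter, with a minimum mean of 5 FPKM and with quantile normalization. Under TPM 1 member was called higher (Usp31), the members' median was 0.23, and 41 genes were higher and 64 lower, or 39.0% higher against 22.9% as deposited. With array weights, which gave BLM1 a weight of 6.09 and BLM3 0.229, 942 genes were higher and 992 lower (18.1% of genes), with 4 members higher (Usp31, Otud3, Usp1, Usp37) and 1 lower (Otub1). A minimum mean of 5 FPKM left 6923 genes, with 17 higher and 58 lower. Leaving out each library gave 0 to 144 genes higher, 0 to 267 lower and 0 to 1 member higher, the last without BLM3, and 0 genes without A20-3. Of 46 members, 31 kept their sign in every alternative, 27 positive and 4 negative. Signs turned under TPM for Usp16 (0.064), Usp11 (0.058) and Usp45 (0.046), and with array weights for Usp16 (0.028), Usp8 (-0.019), Usp30 (-0.050), Usp11 (0.0067), Usp45 (0.45), Otud6b (-0.046), Usp14 (-0.10) and Usp46 (-0.0098). Leaving out libraries gave ranges across 0 for Otud1 (-0.016 to 0.18), Otud6b (-0.053 to 0.13), Usp11 (-0.24 to 0.19), Usp14 (-0.089 to 0.17), Usp16 (-0.095 to 0.091), Usp2 (-0.090 to 0.069), Usp36 (-0.058 to 0.33), Usp40 (-0.026 to 0.098), Usp42 (-0.056 to 0.10), Usp45 (-0.40 to 0.21), Usp48 (-0.31 to 0.072), Usp7 (-0.0094 to 0.14), Usp8 (-0.035 to 0.20) and Tnfaip3 (-0.14 without BLM2 to 1.27 without BLM3). The cause was not tested. No paired analysis was possible because the columns do not carry the replicate numbers of the titles. The read depth is unknown, so no counting error is given.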
